A study of Homo sapiens with 4 samples.

Results

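The RNAs described here are 10 short, folded transcripts that end without a poly(A) tail: RN7SL1 and RN7SL2 (7SL RNA), RN7SK (7SK RNA), RPPH1 (the RNA of RNase P), RMRP (the RNA of RNase MRP), SNORD3A (U3), SNORA73B, SNORD17, SCARNA10 and RNU2-2P (a U2 gene). They were taken by symbol from the 53777 rows of the deposited table that carry an Ensembl gene identifier, and each symbol gave 1 row. They were chosen by their FPKM in these same 4 libraries, known when they were proposed, so those values are described and not tested. Their source was the gastric cancer cell line NUGC3, transfected either with scramble or with a short hairpin against NIPBL, a loader of the cohesin complex. The study has 2 libraries of scramble and 2 of NIPBL knockdown, with hairpin 1 in the first and hairpin 7 in the second, so that each hairpin had a single library. All 4 sample labels carry the letters DOX and the word combined without explaining them, and scramble 2 is labelled like scramble 1 plus a suffix. The labels do not say whether libraries of a group were grown separately, so every p-value below measures no more than library-to-library spread, which could be technical.

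The values are FPKM, fragments scaled to transcript length and library size, as estimated by the authors, and read depth is unknown. FPKM summed over all rows was between 682076 and 749446 per library. The series text speaks of mRNA profiles and the labels of total RNA, and how mRNA was selected is not given in the sources used here. NIPBL itself was at 23.92 and 23.11 FPKM in scramble 1 and 2, at 7.27 FPKM with hairpin 1 and at 9.17 FPKM with hairpin 7. Its log2 change was -1.42 ± 0.14 (SE, limma's adjusted p = 0.0218). The call was lost when genes with a mean under 1 FPKM were also tested (limma, adjusted p = 0.118). It was also lost without either scramble library and with these averaged, where a single scramble value remains. The log2 change of NIPBL was -1.39 without scramble 1 and -1.44 without scramble 2. Of the epithelial markers, 8 of 8 had a mean of at least 1 FPKM. The same held for 0 of 5 immune, 1 of 6 fibroblast (COL1A1) and 0 of 4 endothelial markers, 1 of which had no row. The immune markers summed to between 0.71 and 1.24 FPKM, the fibroblast markers to between 5.76 and 9.59 FPKM and the endothelial markers to between 0.14 and 0.99 FPKM per library.

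Most of these RNAs are the cores of ribonucleoprotein machines. 7SL is the scaffold of the signal recognition particle, which brings ribosomes that make secreted proteins to the endoplasmic reticulum. 7SK holds the elongation kinase P-TEFb in an inactive pool, RNase P cuts the leaders off precursor tRNAs, and RNase MRP and U3 act in the processing of precursor ribosomal RNA. Small nucleolar RNAs (snoRNAs) of the box C/D class guide 2′-O-methylation, those of the box H/ACA class guide pseudouridylation, and their relatives in Cajal bodies (scaRNAs) guide modification of spliceosomal RNAs such as U2. 7SL, 7SK and the RNAs of RNase P and MRP are made by RNA polymerase III, U2 and U3 by RNA polymerase II, and the other guide RNAs are mostly trimmed from introns. Because none of them normally ends in a poly(A) tail, a library primed or captured on poly(A) recovers them poorly.

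The 7SL genes are close to identical, which bears on how their levels are read. They were compared with each other and with RN7SL3, a further copy, as annotated in GENCODE 29. Over 299 positions RN7SL1 and RN7SL2 were 98.7% identical, RN7SL1 and RN7SL3 97.7%, and RN7SL2 and RN7SL3 96.3%. Of the 50-base windows of RN7SL1, 84.4% also occurred in annotated transcripts of other genes, and the share was 86.5% for RN7SL2. A short read from most of either RNA therefore fits more than 1 gene, and how the authors' software divided such reads sets the level of each.

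SNORD3A and SNORD17 are the box C/D members, shown because SNORD3A had the lowest ratio of knockdown to scramble mean among members above 0 in every library. In the RNAs as annotated in GENCODE 29, capitals mark box C, matched as TGATGA, and the last CTGA as box D.
SNORD3A: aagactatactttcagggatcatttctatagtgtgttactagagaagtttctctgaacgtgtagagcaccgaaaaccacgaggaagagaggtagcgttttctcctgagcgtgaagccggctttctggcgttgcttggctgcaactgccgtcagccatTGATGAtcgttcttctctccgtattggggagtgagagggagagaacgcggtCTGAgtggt
SNORD17: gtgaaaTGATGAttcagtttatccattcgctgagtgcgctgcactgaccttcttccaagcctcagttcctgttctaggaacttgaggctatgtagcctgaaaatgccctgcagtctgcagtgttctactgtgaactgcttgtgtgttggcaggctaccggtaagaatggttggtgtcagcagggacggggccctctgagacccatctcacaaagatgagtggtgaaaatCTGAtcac
On the given strand TGATGA occurred in 36.0% of the 955 annotated snoRNA transcripts and CTGA in 71.2%, so a match describes the letters only. U3 is also repeated in the genome, with 88.1% of the windows of SNORD3A shared with transcripts of other genes. That share was 77.1% for RN7SK, 61.3% for RNU2-2P and 3.2% for SNORA73B. It was 0 for RPPH1, RMRP, SNORD17 and SCARNA10. The longest run of A in any of the 10 RNAs was 4 bases.

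The genes lie apart, mostly on different chromosomes, and several sit inside other genes. In GENCODE 29 (GRCh38), RN7SL1 is at chr14:49586580-49586878 on the plus strand, opposite an intron of RPS29 and within an exon of AL139099.4. RN7SL2 is at chr14:49862550-49862849 on the minus strand, in an intron of AL627171.2. The deposited identifiers of RN7SL1 and RN7SL2 are not in GENCODE 29, so the models and lengths behind their FPKM may differ from these. RN7SK is at chr6:52995621-52995948, where its deposited identifier belongs to an overlapping model named RF00100, and RMRP is at chr9:35657751-35658018 on the minus strand. RPPH1 is at chr14:20343075-20343407 on the minus strand, and its deposited identifier belongs to a longer model there, at chr14:20343048-20343685. SNORD3A has a gene model at chr17:19188016-19188714, longer than the 217-base RNA printed above. SNORA73B at chr1:28508559-28508762 is in an intron of both RCC1 and SNHG3, SNORD17 at chr20:17962710-17962946 in an intron of SNX5 and of OVOL2, and SCARNA10 at chr12:6510222-6510551 in an intron of NCAPD2. RNU2-2P at chr11:62841619-62841809 falls in an exon of a WDR74 model. The authors' build is not given in the sources used here, and without a stated strand setting, reads of overlapping genes cannot be told apart.

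Of the 10 RNAs, 4 were lower with both hairpins than in both scramble libraries: RN7SL1, RN7SL2, SNORD3A and SCARNA10. Of the 12834 genes tested, those whose mean reached 1 FPKM, 30.8% were below in that way, and the choice of members used this contrast, so nothing is read from the count. No member was above both scramble libraries with both hairpins, against 29.5% of those genes, and the groups of the other 6 overlapped. All 10 had a mean of at least 1 FPKM, but SNORA73B, SCARNA10 and RNU2-2P reached it through scramble libraries alone. The log2 change, the difference of the group means of log2(FPKM + 1), was negative for 8 members and positive for RPPH1 and RMRP. Its median was -1.73 over the members and -0.01 over the 12834 genes. The members were chosen on these values, and the 3 seen in scramble libraries alone could only be negative. Nothing is read from these signs or from this median. Values were above 0 in every library for 6 members and listed at 0 in at least 1 library for the other 4.

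**Figure D1:**
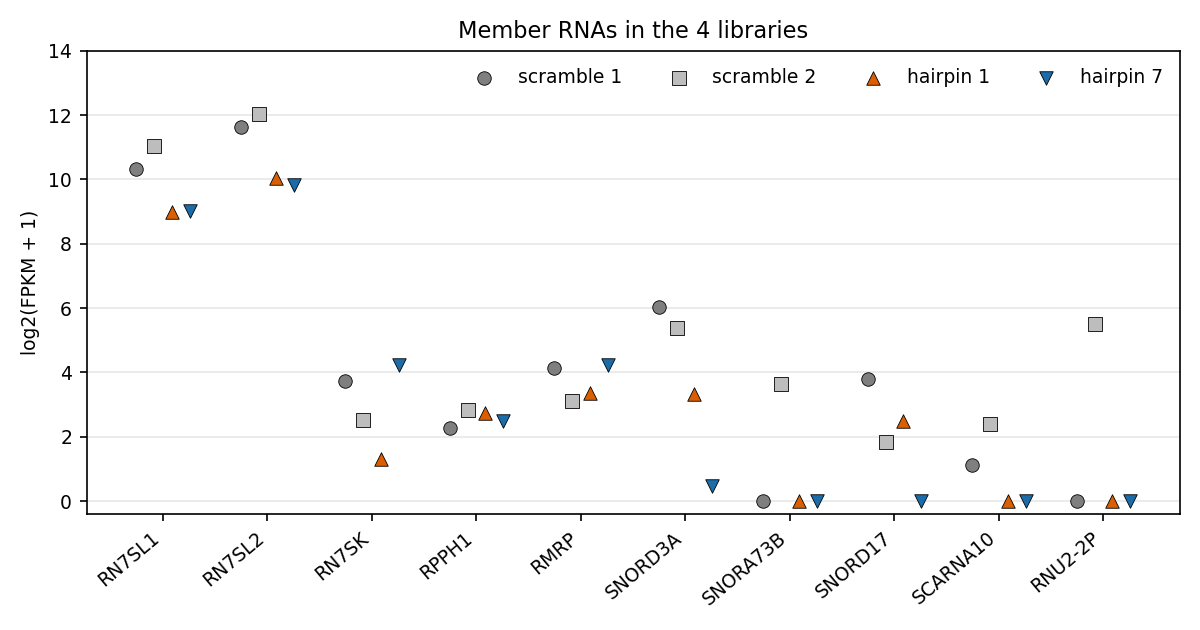
Level of each of the 10 RNAs as log2(FPKM + 1), with 1 symbol per library (circle scramble 1, square scramble 2, upward triangle hairpin 1, downward triangle hairpin 7). RN7SL1 and RN7SL2 stand above the other RNAs in every library and lower with both hairpins, while RN7SK, RPPH1 and RMRP overlap between the groups.

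7SL RNA was the abundant member, and it was lower with both hairpins. RN7SL2 was at 3202.54 FPKM in scramble 1, 4181.14 FPKM in scramble 2, 1063.92 FPKM with hairpin 1 and 907.08 FPKM with hairpin 7. Mean levels were 3692 ± 692 FPKM in scramble (SD, n = 2) and 985.5 ± 111 FPKM under knockdown (SD, n = 2), a 3.75-fold lower level with a log2 change of -1.90. Both hairpin values lay far below the lower scramble value, where hairpin 1 gave 28.8% and hairpin 7 gave 24.6% of the scramble mean. RN7SL1 was at 1281.26 and 2090.5 FPKM in scramble 1 and 2, at 505.41 FPKM with hairpin 1 and at 514.35 FPKM with hairpin 7. Its mean was 1686 ± 572 FPKM in scramble (SD, n = 2) and 509.9 ± 6.32 FPKM under knockdown (SD, n = 2), 3.31-fold lower, with a log2 change of -1.68. The hairpins were alike for RN7SL1, at 30.0% and 30.5% of the scramble mean, while scramble 2 was 1.63 times scramble 1. In bulk RNA, less of an RNA per cell and fewer cells that hold it cannot be told apart.

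By mean FPKM, which is per transcript length, RN7SL2 ranked 26th and RN7SL1 87th of the 53777 rows. Together they took 0.606% and 0.858% of all FPKM in scramble 1 and 2, 0.209% with hairpin 1 and 0.208% with hairpin 7. They made up between 97.22% and 98.13% of the summed FPKM of the 10 members in each library, so any sum over the members is a sum of 7SL. The ratio of RN7SL1 to RN7SL2 was 0.4 and 0.5 in the scramble libraries, 0.475 with hairpin 1 and 0.567 with hairpin 7. That ratio did not separate the groups.

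The further rows named RN7SL did not all go the same way. RN7SL3, which was no member, was at 24.14 and 51.93 FPKM in scramble 1 and 2, 7.31 FPKM with hairpin 1 and 5.35 FPKM with hairpin 7 (log2 change -2.33, limma, adjusted p = 0.0544). The other 845 rows named RN7SL, of which 75 were above 0 in any library, summed to 36.61 and 52.63 FPKM in scramble and to 41.88 and 37.11 FPKM with hairpin 1 and 7. Their sum in knockdown libraries was 88.5% of that in scramble, with overlapping groups. All 848 rows named RN7SL together summed to 4544.55, 6376.2, 1618.52 and 1463.89 FPKM in scramble 1, scramble 2, hairpin 1 and hairpin 7. The knockdown mean of that sum, which depends less on how reads were split among copies, was 28.2% of the scramble mean.

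**Figure D2:**
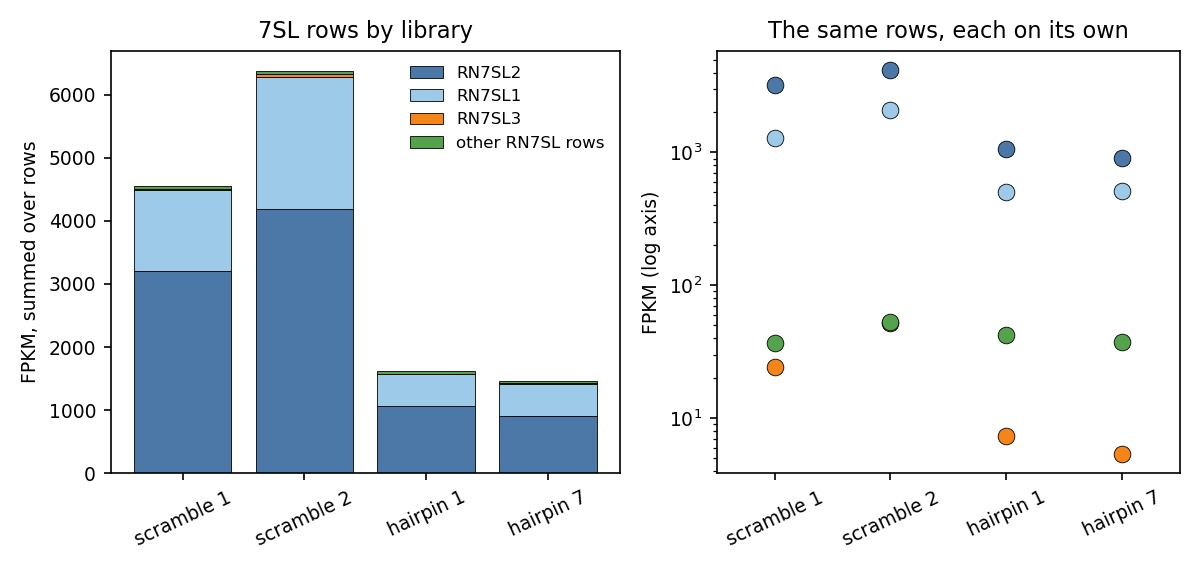
FPKM of 7SL rows in the 4 libraries. Left, stacked bars of RN7SL2, RN7SL1, RN7SL3 and the sum of the other 845 rows; right, the same quantities on a log axis, with 1 point per library. The bars reach 4544.55 and 6376.2 FPKM in scramble and 1618.52 and 1463.89 FPKM with the hairpins, while the sum of the other rows overlaps between the groups.

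The genes of the proteins that bind 7SL had small differences between the groups. All 8 genes of the signal recognition particle and its receptor were tested, and 0 passed the limma test at an adjusted p of 0.05 in either direction, with 0 at an unadjusted p under that value. Over all 12834 genes 328 passed, or 2.56%, of which 186 were higher (1.45%) and 142 lower (1.11%) in knockdown libraries. At an unadjusted p under 0.05, a cut that is also used for the lists below, 12.8% of all genes tested were lower and 13.6% higher, or 26.4% in all. The median log2 change of the signal recognition list was -0.07. Of its 8 genes 7 had a negative log2 change, beside 51.7% of all genes tested, and 5 (62.5%) were below both scramble libraries with both hairpins, beside 30.8%. SRP72, which binds the RNA together with SRP68, was at 71.33 and 72.18 FPKM in scramble, 63.3 FPKM with hairpin 1 and 52.8 FPKM with hairpin 7 (log2 change -0.31 ± 0.12, SE, limma's adjusted p = 0.192). SRP54, the GTPase that binds the signal sequence, had a positive log2 change of 0.23 ± 0.09 (SE, limma's adjusted p = 0.198), and SRP68 one of -0.14 (limma, adjusted p = 0.407).

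RN7SK did not separate the groups, because the hairpins lay on opposite sides of the scramble libraries. It was at 12.29 FPKM in scramble 1, 4.77 FPKM in scramble 2, 1.46 FPKM with hairpin 1 and 17.65 FPKM with hairpin 7. Both the lowest and the highest value were knockdown libraries, at 17.1% and 207% of the scramble mean. The knockdown mean was 112% of the scramble mean, although the log2 change was negative. The log2 change of -0.37 became 0.23 without scramble 1, 1.09 without hairpin 1 and -1.83 without hairpin 7. At a mean of 9.04 FPKM it was listed far below 7SL, although 7SK is known as an abundant nuclear RNA. The other 296 rows named as 7SK copies, 27 of them above 0, summed to 11.53 and 13.13 FPKM in scramble, 9.77 FPKM with hairpin 1 and 4.71 FPKM with hairpin 7.

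Of the 7 genes for proteins of the 7SK particle, 0 passed limma's test and 0 had an unadjusted p under 0.05, with a median log2 change of -0.08. MEPCE, which caps the 7SK RNA, was at 12.42 and 13.03 FPKM in scramble, 14.77 FPKM with hairpin 1 and 16.71 FPKM with hairpin 7 (log2 change 0.28 ± 0.11, SE, limma's adjusted p = 0.198). The genes of P-TEFb, the kinase that 7SK holds, had log2 changes of -0.19 for its cyclin CCNT1 (limma, adjusted p = 0.309) and -0.18 for CDK9 (limma, adjusted p = 0.435).

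The RNAs of RNase P and RNase MRP, 2 enzymes that share most of their proteins, were not lower with the hairpins. RPPH1 was at 3.85 and 6.07 FPKM in scramble 1 and 2, at 5.67 FPKM with hairpin 1 and at 4.65 FPKM with hairpin 7. Both hairpin values fell between the scramble values, and the knockdown mean was 104% of the scramble mean. RMRP was at 16.54 FPKM in scramble 1, 7.71 FPKM in scramble 2, 9.29 FPKM with hairpin 1 and 17.96 FPKM with hairpin 7. Scramble 1 and hairpin 7 were the high libraries, as they were for RN7SK. The log2 change of RMRP, 0.18, was -0.33 without scramble 2 and -0.26 without hairpin 7. That of RPPH1, 0.07, was -0.20 without scramble 1 and -0.05 without hairpin 1. Neither RNA shares a 50-base window with an annotated transcript of another place, unlike 7SL, 7SK and U3.

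Among the 11 genes for RNase P and MRP proteins, 0 passed the limma test, and the median log2 change was -0.14. At unadjusted p under 0.05, 3 were lower and 1 was higher, 36.4% of the list beside 26.4% of all genes tested. POP1, the largest subunit, was at 12.39 and 11.95 FPKM in scramble, 7.9 FPKM with hairpin 1 and 7.62 FPKM with hairpin 7 (log2 change -0.59 ± 0.11, SE, limma's adjusted p = 0.0644). POP7 had a log2 change of -0.38 (limma, adjusted p = 0.113). Its partner RPP25, with which it forms a dimer on the RNA, had one of 0.37 (limma, adjusted p = 0.119).

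SNORD3A, the U3 RNA that pairs with precursor ribosomal RNA, was lower with both hairpins, and by different amounts. It was at 64.93 FPKM in scramble 1, 40.58 FPKM in scramble 2, 8.96 FPKM with hairpin 1 and 0.4 FPKM with hairpin 7. Mean levels were 52.8 ± 17.2 FPKM in scramble (SD, n = 2) and 4.68 ± 6.05 FPKM under knockdown (SD, n = 2), 11.3-fold lower. Hairpin 1 lay at 17.0% and hairpin 7 at 0.758% of the scramble mean, so the hairpin libraries differed from each other as well as from scramble. The log2 change was -3.81 with both hairpins, -2.39 without hairpin 7 and -5.22 without hairpin 1. All 5 rows named SNORD3, of which 2 were above 0, summed to 69.83 and 44.52 FPKM in scramble, 11.41 FPKM with hairpin 1 and 2.93 FPKM with hairpin 7. Besides SNORD3A that sum held SNORD3B-2, which was at 4.9, 3.94, 2.45 and 2.53 FPKM in scramble 1, scramble 2, hairpin 1 and hairpin 7.

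SNORD17, a box C/D guide RNA, did not separate the groups. It was at 12.8 FPKM in scramble 1, 2.57 FPKM in scramble 2 and 4.59 FPKM with hairpin 1, and it was listed at 0 with hairpin 7. Hairpin 1 fell between the scramble libraries. On the log2(FPKM + 1) scale scramble 2 minus scramble 1 was -1.95 and hairpin 7 minus hairpin 1 was -2.48. Its log2 change of -1.57 was -0.59 without scramble 1, -2.55 without scramble 2, -2.81 without hairpin 1 and -0.33 without hairpin 7.

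The protein genes of box C/D particles and of U3 had lower values in most cases without passing the test. Of 8 genes, 0 passed the limma test, 4 were lower (beside 12.8% of all genes tested) and 0 higher at unadjusted p under 0.05. Both hairpins were below both scramble libraries for 6 of them, or 75.0%, beside 30.8% of all genes tested. Their median log2 change was -0.40, against -0.01 over all genes tested. NOP56, a core protein of every box C/D particle, was at 258.96 and 269.54 FPKM in scramble, 164.52 FPKM with hairpin 1 and 133.72 FPKM with hairpin 7 (log2 change -0.83 ± 0.13, SE, limma's adjusted p = 0.0533). The methyltransferase gene FBL had a log2 change of -0.58 ± 0.15 (SE, limma's adjusted p = 0.0982) and SNU13 (NHP2L1 in the deposited table), which binds the C/D fold, one of -0.49 ± 0.12 (SE, limma's adjusted p = 0.0925).

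SNORA73B and SCARNA10, which belong to the H/ACA and Cajal body classes, were seen in scramble libraries alone and at low level. SNORA73B, which is known as U17b and acts in ribosomal RNA processing, was at 11.38 FPKM in scramble 2 and was listed at 0 in scramble 1 and with both hairpins. SCARNA10 was at 1.19 FPKM in scramble 1, at 4.3 FPKM in scramble 2 and listed at 0 with both hairpins. For SNORA73B the log2 change of -1.81 became 0 without scramble 2 and -3.63 without scramble 1. That of SCARNA10, -1.77, was -1.13 without scramble 2 and -4.57 when 0.1 in place of 1 FPKM was added before the log. No fold is given for either RNA, since a listed 0 may be a failed estimate.

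Of the 6 box H/ACA protein genes, 0 passed limma's test, 3 were lower (beside 12.8% of all genes tested) and 0 higher at unadjusted p under 0.05, and the median log2 change was -0.36. The pseudouridine synthase gene DKC1 was at 101.34 and 103.51 FPKM in scramble, 79.19 FPKM with hairpin 1 and 60.07 FPKM with hairpin 7 (log2 change -0.56 ± 0.15, SE, limma's adjusted p = 0.111). NAF1, an assembly factor, had a log2 change of -0.36 (limma, adjusted p = 0.14), and NHP2, a core protein, one of -0.43 (limma, adjusted p = 0.174). Among the 9 genes for Cajal bodies and small RNA export, 0 passed, 4 were lower (again beside 12.8%) and 0 higher at unadjusted p under 0.05, and the median was -0.18. NOLC1, a snoRNP chaperone, had a log2 change of -0.67 ± 0.16 (SE, limma's adjusted p = 0.0932), GEMIN2 of -0.38 (limma, adjusted p = 0.119) and GEMIN5 of -0.52 (limma, adjusted p = 0.127), both GEMIN genes encoding parts of the SMN complex that loads Sm proteins onto small nuclear RNAs.

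RNU2-2P was a signal of 1 library. It was at 44.57 FPKM in scramble 2 and was listed at 0 in scramble 1 and with both hairpins. Of the 68 rows named RNU2, 2 were above 0 in any library, and the other, RNU2-63P, was at 25.91 FPKM in scramble 2 and listed at 0 elsewhere. Without scramble 2 the log2 change of RNU2-2P, -2.76, was 0, and without scramble 1 it was -5.51. SNORA73B was above 0 in that same library only.

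Of the 12 genes for proteins of the U2 particle, 0 passed limma's adjusted test, while 4 were lower (beside 12.8% of all genes tested) and 0 higher at unadjusted p under 0.05. All 12 had a negative log2 change, beside 51.7% of all genes tested, with a median of -0.31. Both hairpins were below both scramble libraries for 9 of them, or 75.0%, beside 30.8%. SNRPA1, which sits on the U2 RNA, was at 114.16 and 110.94 FPKM in scramble, 75.26 FPKM with hairpin 1 and 60.16 FPKM with hairpin 7 (log2 change -0.73 ± 0.13, SE, limma's adjusted p = 0.0663). The log2 change was -0.53 for PHF5A (limma, adjusted p = 0.0929) and -0.46 for SF3B3 (limma, adjusted p = 0.111), both of the SF3b complex.

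Several members are cut from, or lie beside, longer genes. SNHG3, whose spliced RNA surrounds SNORA73B, was at 25.5 and 34.23 FPKM in scramble, 11.55 FPKM with hairpin 1 and 9.75 FPKM with hairpin 7. It fell by 1.40 ± 0.18 on the log2 scale (SE, limma's adjusted p = 0.0392). This call was lost without scramble 1 (limma, adjusted p = 0.213), without scramble 2 (limma, adjusted p = 0.315) and with these averaged (limma, adjusted p = 0.255). It was also lost without the filter on low values (limma, adjusted p = 0.136) and without a mean trend of the variance (limma, adjusted p = 0.0547). The other host genes had smaller log2 changes, of -0.60 for SNX5 (limma, adjusted p = 0.0573), -0.45 for RCC1 (limma, adjusted p = 0.0919) and -0.41 for NCAPD2 (limma, adjusted p = 0.149). NCAPD2, the host of SCARNA10, was at 71.39 and 67.07 FPKM in scramble and 57.77 and 46.34 FPKM with hairpin 1 and 7, where SCARNA10 was listed at 0. SNORD17 at 0 with hairpin 7 likewise sat beside 116.12 FPKM of SNX5 in that library.

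Of the genes that adjoin a member, PARP2 starts 174 bases from RPPH1 on the other strand and CCDC107 starts 271 bases from RMRP on the other strand. In GENCODE 29 the longer model behind the deposited row of RPPH1 reaches chr14:20343685, past the start of PARP2. The log2 change was -0.46 for PARP2 (limma, adjusted p = 0.0916) and 0.43 for CCDC107 (limma, adjusted p = 0.113). PARP2 was below both scramble libraries with both hairpins, while the groups of RPPH1 overlapped. Without a stated strand setting, reads of the stretch they share cannot be told apart, so no contrast between them is drawn. WDR74, which holds RNU2-2P, was at 53.05 and 48.62 FPKM in scramble, 44.44 FPKM with hairpin 1 and 30.37 FPKM with hairpin 7 (log2 change -0.46, limma, adjusted p = 0.222). Of these 7 host and neighbour genes 1 passed the test, SNHG3, or 14.3%, beside 2.56% of all genes tested. Their median log2 change was -0.46, beside -0.01. At an unadjusted p under 0.05 (limma), 5 were lower and 1 higher, or 85.7%, beside 26.4%. Both hairpins were below both scramble libraries for 6, or 85.7%, beside 30.8%. These genes follow from the choice of members, which used these data, so nothing is read from these shares.

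**Figure D3:**
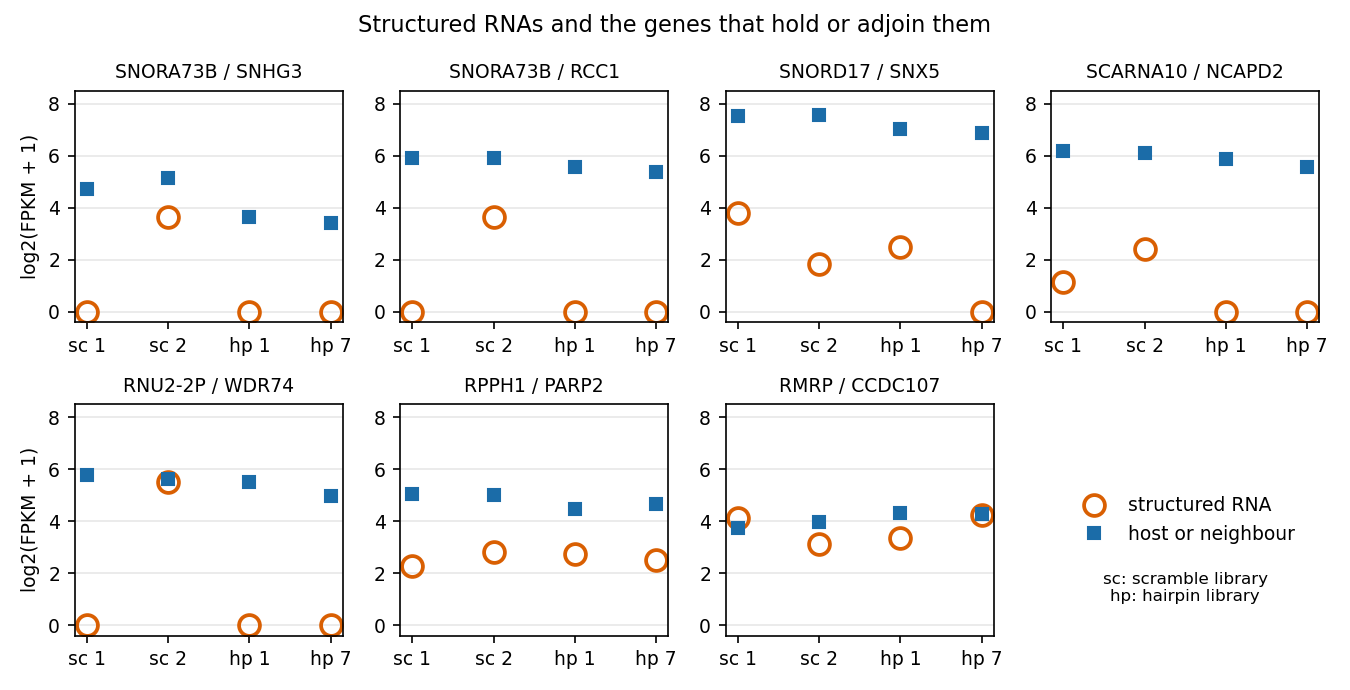
Level of members (open circles) and of the gene that holds or adjoins each (squares) as log2(FPKM + 1) in the 4 libraries (sc, scramble; hp, hairpin). Host genes stay above 0 in every library, including those where SNORA73B, SNORD17, SCARNA10 and RNU2-2P were listed at 0.

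The machinery that makes these RNAs was measured through 28 genes for RNA polymerase III and its promoter factors. SNAPC1, a subunit of the complex that binds the promoters of 7SK, RNase P, RNase MRP and U2 genes, was the 1 gene of the 28 that passed. It was at 29.28 and 31.06 FPKM in scramble, 17.94 FPKM with hairpin 1 and 19.15 FPKM with hairpin 7, and it fell by 0.67 ± 0.10 on the log2 scale (SE, limma's adjusted p = 0.0484). The call was close to the threshold and was lost without scramble 1 (limma, adjusted p = 0.501), without scramble 2 (limma, adjusted p = 0.557) and with the scramble libraries averaged (limma, adjusted p = 0.574). It was also lost without the filter on low values, without the mean trend and under each of 3 scalings, at an adjusted p between 0.0506 and 0.125 (limma). Under these 3 scalings NOP56 was the 1 partner gene that passed in its place, at an adjusted p between 0.0416 and 0.0444 (limma). POLR3G, an alternative subunit of polymerase III, was at 14.76, 11.82, 6.8 and 5.68 FPKM in scramble 1, scramble 2, hairpin 1 and hairpin 7 (log2 change -0.98 ± 0.16, SE, limma's adjusted p = 0.0544). POLR3K had a log2 change of -0.68 ± 0.13 (SE, limma's adjusted p = 0.0664). At an unadjusted p under 0.05, 6 of the 28 were lower and 2 higher, 28.6% of the list, and the median was -0.17. Of all genes tested, 12.8% were lower and 13.6% higher, 26.4% in all. Both hairpins were below both scramble libraries for 15 of the 28, or 53.6%, beside 30.8% of all genes tested. They were above both for 5, beside 29.5% of all genes tested.

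Genes for enzymes that shape the ends of these RNAs were measured in 2 lists. Integrator, which cuts the ends of U2 and other small nuclear RNAs, had 0 of 14 genes past limma's test and 0 with an unadjusted p under 0.05, with a median log2 change of -0.01. Its members with the smallest p were INTS2 (log2 change -0.32, limma, adjusted p = 0.258), INTS4 (-0.19, adjusted p = 0.269) and INTS7 (0.25, adjusted p = 0.276). Among 8 genes for end trimming and protection 0 passed, 1 was lower and 0 higher at unadjusted p under 0.05, and the median was -0.17. SSB, whose La protein binds the uridine ends of polymerase III transcripts, was at 175.56 and 176.47 FPKM in scramble, 163 FPKM with hairpin 1 and 125.06 FPKM with hairpin 7 (log2 change -0.30, limma, adjusted p = 0.275). The nuclear exosome gene EXOSC10 had a log2 change of -0.29 (limma, adjusted p = 0.137) and the deadenylase gene TOE1 one of -0.32 (limma, adjusted p = 0.243). Over the 10 lists of such proteins, 111 genes in all, 1 was lower and 0 higher by limma's adjusted p, or 0.901%, beside 2.56% of all genes tested. At unadjusted p under 0.05, 25 were lower and 3 higher, 25.2% in all, beside 26.4% of all genes tested. Of all genes tested, 12.8% were lower and 13.6% higher. The lists were chosen with earlier results of these data known. Nothing is therefore read from this split or from the shares that follow. A negative log2 change was found for 74.8% of the 111, beside 51.7% of all genes tested. Of these 111 genes 56.8% were below both scramble libraries with both hairpins, beside 30.8% of all genes tested, and their median was -0.14.

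**Figure D4:**
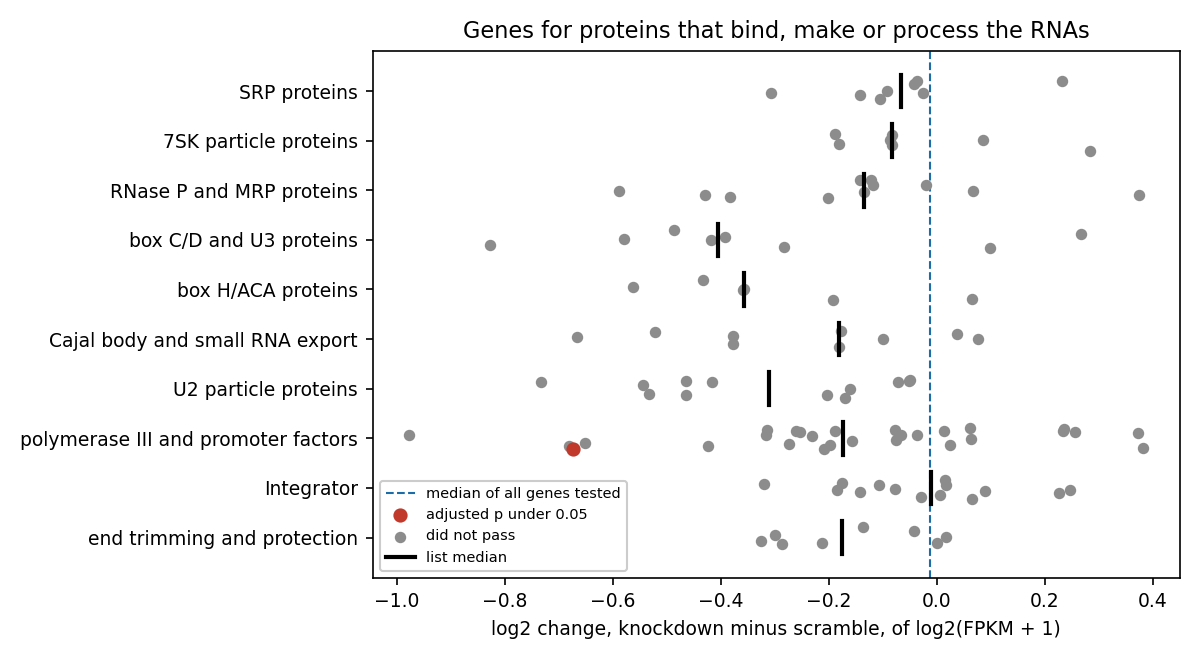
Log2 change, knockdown minus scramble, of genes for proteins that bind, make or process the RNAs, with 1 point per gene and a bar at each list's median. The dashed line is the median of all genes tested (-0.01), and the red point is SNAPC1, the single gene of the 111 with an adjusted p under 0.05.

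The members were also compared between libraries of the same group. Over the 12834 genes the SD of the log2(FPKM + 1) difference was 0.28 between the scramble libraries and 0.45 between the hairpins. All 10 members differed between the scramble libraries by more than that SD, and 4 differed between the hairpins by more than theirs. The share of all genes beyond these SDs was not counted. SNORA73B and RNU2-2P passed the filter on low values through scramble 2 alone, so a large scramble difference was built in for them. Nothing is read from these counts or from the medians that follow. The median size of the difference between scramble libraries was 1.10 over the members and 0.07 over all genes. Between the hairpins it was 0.23 over both, where SNORA73B, SCARNA10 and RNU2-2P differed by 0 because they were listed at 0 in both libraries. RN7SL1 and RN7SL2 differed by 0.71 and 0.38 between the scramble libraries and by 0.03 and -0.23 between the hairpins (hairpin 7 minus hairpin 1), less than their difference between groups. RN7SK differed by -1.20 between scramble libraries and by 2.92 between hairpins, more than its difference between groups. These RNAs were chosen with these values known, so the comparisons describe them and are no test.

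Most rows of the members' RNA classes were listed at 0. Of 4292 rows that the table classes as snoRNA, snRNA or misc_RNA, 97.4% were listed at 0 in every library. For snoRNA this was 914 of 920 rows, for snRNA 1556 of 1558 and for misc_RNA, which holds the 7SL and 7SK copies, 1710 of 1814. Only 3 members (SNORA73B, SNORD17, RNU2-2P) are classed as snoRNA or snRNA, and RMRP and SNORD3A are classed as lincRNA, RN7SL1 and RPPH1 as antisense and SCARNA10 as sense_intronic. Outside the members, 15 rows of these 3 classes were tested and 1 passed, the 7SL copy RN7SL663P. It was at 2.9 and 2.66 FPKM in scramble and listed at 0 with both hairpins. It reached the mean of 1 FPKM through the scramble libraries alone, so nothing is read from its call, and it was singled out after its value was seen.

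A list of 40 further untailed RNAs, such as Y RNAs, vault RNAs, minor spliceosomal RNAs and scaRNAs, was also mostly not seen. A row was found for 33 of them, of which 22 were listed at 0 in all libraries and 5 reached a mean of 1 FPKM. Beside RN7SL3 these 5 were SCARNA9, SCARNA12, SCARNA13 and TERC, and limma's adjusted p was between 0.629 and 0.882 for the 4. SCARNA9, whose RNA guides U2 modification, was at 4.97, 3.04, 3.93 and 5.53 FPKM in scramble 1, scramble 2, hairpin 1 and hairpin 7. TERC, the RNA of telomerase, was at 0.63, 1.17, 1.09 and 1.19 FPKM in the same order. SCARNA13 was listed at 0 in scramble 2 and with hairpin 7, and at 3.75 and 2.31 FPKM in scramble 1 and with hairpin 1. For none of these 4 were both hairpins below both scramble libraries, as they were for 30.8% of all genes tested. All 4 were at low level, and 7SL and U3 were chosen with their values known, so no contrast with them is drawn.

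Other RNAs whose share depends on how RNA was selected did not all move with 7SL. The mitochondrial ribosomal RNA MT-RNR2 was at 1351.7 and 1261.18 FPKM in scramble, 1764.63 FPKM with hairpin 1 and 2552.33 FPKM with hairpin 7, above scramble where 7SL was below. The row RNA18S5 was at 179.49, 83.52, 88.11 and 207.44 FPKM in scramble 1, scramble 2, hairpin 1 and hairpin 7, high in the libraries where RN7SK and RMRP were high. RNA28S5 was at 127.76, 104.52, 91.01 and 87.63 FPKM, lower with both hairpins than in both scramble libraries. The 84 rows of HIST1H and HIST2H genes, whose main mRNAs also lack a tail, summed to 237.74 and 238.86 FPKM in scramble, 476.91 FPKM with hairpin 1 and 216.35 FPKM with hairpin 7. Of nuclear RNAs, MALAT1, whose end is a triple helix, and NEAT1 had log2 changes of 0.31 ± 0.17 (SE, limma's adjusted p = 0.315) and 0.47 ± 0.16 (SE, limma's adjusted p = 0.159). The part of RNA selection in the members' values was not tested.

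The 5 genes with the profile over the 4 libraries nearest to that of RN7SL1, and to that of RN7SK, were found by distance. Nearness was the root mean square difference of log2(FPKM + 1), each gene centred on its own mean over the 4 libraries, among the genes tested. It was 0.033 for HMGA1P8, a pseudogene, 0.067 for MID1IP1-AS1, 0.197 for SNHG3, 0.198 for ANKRD29 and 0.204 for RP11-212P7.3. HMGA1P8 and MID1IP1-AS1 were listed at 0 with both hairpins and reached a mean of 1 FPKM through the scramble libraries alone, and ANKRD29 was at 3.36, 5.1, 1.05 and 1.09 FPKM in scramble 1, scramble 2, hairpin 1 and hairpin 7. For RN7SK the nearest was RP11-87N3.6 at 0.356. It was followed by RP11-49I11.1 and DNAJC27-AS1 at 0.456, RP13-512J5.1 at 0.462 and CPA4, a carboxypeptidase gene, at 0.511. CPA4 was at 24.85 and 25.66 FPKM in scramble, 10.12 FPKM with hairpin 1 and 73.22 FPKM with hairpin 7.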

How the data were processed

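RNA abundance was measured in 2 scramble and 2 NIPBL knockdown libraries of NUGC3. The authors deposited FPKM per gene. Per the submitters' processing notes STAR and RSEM were used, without versions. Genome build, annotation, strand setting and filters were not given in the sources used here. RSEM divides reads that fit several genes, so values of near-identical copies are uncertain. The deposited FPKM gives no depth, so no counting intervals are given.

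The test was limma's (version 3.58.1, under R 4.3.3; lmFit and eBayes, mean trend, two-sided) on log2(FPKM + 1). A mean of 1 FPKM or more was required, which left 12834 genes, p-values were adjusted by Benjamini and Hochberg over all of them, and the threshold was 0.05. Log2 changes on this scale understate the change of low genes. The fit was also run on simulated data with independent noise, which cannot show how it behaves where libraries of a group are not independent. The members and all lists were chosen with earlier results of these data known. The rule for named genes took the 10 members, all host and neighbour genes, list genes past the threshold or else the 3 with the smallest p, further untailed RNAs with a mean of at least 1 FPKM, and the 5 genes nearest to RN7SL1 and to RN7SK. NIPBL, further copies, ribosomal RNAs and histone rows were added after their values were seen. The lists were those of partner proteins, other untailed RNAs, nuclear RNAs and cell type markers. Locations and sequences are from GENCODE 29, in which RN7SL1, RN7SL2, RN7SL3, RN7SK and RPPH1 were matched by symbol and the others by identifier. The letters of the 7SL RNAs are not reported here. Alternatives were a pseudocount of 0.1 FPKM, a minimum of 5 FPKM or none, no mean trend, 3 scalings, averaged scramble libraries and leaving out each library.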

Additional observations from a re-analysis of the deposited data

Results flagged for a closer look

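RN7SK stood out because the hairpins moved to opposite sides of the scramble libraries. Against the scramble mean of log2(FPKM + 1), hairpin 1 was at -1.83 and hairpin 7 at 1.09, a gap of 2.92. Hairpin 1 lay below both scramble libraries and hairpin 7 above both. SCARNA12, a Cajal body RNA, had the same arrangement, with hairpin 1 at -0.88 and hairpin 7 at 0.23, a gap of 1.11. It was at 2.65, 2.81, 1.02 and 3.37 FPKM in scramble 1, scramble 2, hairpin 1 and hairpin 7. Each hairpin had a single library, so the difference between hairpins was not tested for either RNA.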

How the results depend on the processing

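No paired analysis was possible because the labels give the groups no shared replicate numbers. The 328 genes past limma's threshold became 198 after scaling to the protein-coding sum, 1 without the filter on low values (4275 at an unadjusted p under 0.05) and 0 with the scramble libraries averaged (975 unadjusted). Leaving out 1 library gave 0 to 4532 calls: 0 without scramble 1 (1060 unadjusted), 0 without scramble 2 (1052 unadjusted), 4532 without hairpin 1 and 2915 without hairpin 7, where the lone library is assumed to vary like the others. The count of 1 call among partner genes (SNAPC1) became 0 without the filter, without the mean trend or with scramble averaged, 3 with a minimum of 5 FPKM, and 0 to 51 leaving out 1 library (0 without either scramble library, 51 without hairpin 1, 21 without hairpin 7). The 4 members below without overlap became 7 with scramble averaged and 5 to 7 leaving out 1 library (7 without scramble 1), since fewer libraries must then be passed. RN7SL1 kept a log2 change between -2.03 and -1.33 and RN7SL2 between -2.09 and -1.70 over the alternatives that were run. The cause of the other differences was not tested. With 2 libraries a group, unknown depth and reads shared among copies, levels of RNAs near 0 cannot be ranked.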

Other observations

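Beyond the rows with gene names, the table held 291033 rows without one. Of the 59 such rows with a mean of at least 100 FPKM, hsa-lncRNA2670-2 had the profile nearest to RN7SL1, at a root mean square difference of 0.139. It was at 1431.08 and 3005.45 FPKM in scramble 1 and 2, 672.58 FPKM with hairpin 1 and 616.63 FPKM with hairpin 7. Next came NONHSAT046793, at a difference of 0.506. The first of these rows was chosen after its values were seen, and the table does not say whether it shares sequence with 7SL.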
